A study of Homo sapiens with 12 samples.

Results

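The proteasome subunit genes were followed here across 4 groups of A549 cells, a human lung adenocarcinoma line whose parental cells are known to lack functional LKB1, the kinase encoded by STK11. The members are all rows of the gene table whose symbol is PSMA, PSMB, PSMC, PSMD, PSME, PSMF or PSMG followed by a number. These were 52 of 20323 rows. They held 48 genes with 1 identifier each and 4 second identifiers that carry a symbol already in use. The 48 genes comprise 19 core genes (PSMA, PSMB), 20 cap genes (PSMC, PSMD), 4 activators (PSME), 1 inhibitor (PSMF1) and 4 assembly chaperones (PSMG). The groups were LKB1-deficient cells (named con in the titles) pretreated with high-dose AA, LKB1-deficient cells pretreated with PBS, LKB1-intact cells (genotype WT) pretreated with high-dose AA, and LKB1-intact cells pretreated with PBS, with 3 libraries each. AA is called VitC in the titles, that is, ascorbic acid. The labels give no dose, no duration, no account of how intact cells were obtained and no clone. Nothing in the labels says that the 3 libraries of a group came from separate cultures, so a p-value here speaks only of how these libraries vary, and that variation may be technical.

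The proteasome degrades proteins that carry ubiquitin chains. Its barrel-shaped core stacks outer alpha rings on inner beta rings, and only some beta subunits carry an active site; interferon induces a second set of active-site subunits that replaces the constitutive set in the immunoproteasome. The cap binds ubiquitin, removes it and threads the substrate into the core by means of an ATPase ring, and the activators of the PSME family open the core without ubiquitin. Dedicated chaperones assemble the alpha ring, and the transcription factor encoded by NFE2L1 is known to raise proteasome genes together when proteasome activity falls short.

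The gene table held 16055534 to 20306129 counts per library. STK11 had 5.61, 7.33 and 6.97 CPM in deficient AA libraries, against 5.94, 6.56 and 4.86 CPM in deficient PBS libraries. It had 24.3, 28.2 and 25.6 CPM in intact AA libraries, against 25.4, 24.6 and 23.6 CPM in intact PBS libraries. The deficient libraries lay below all intact libraries, by -2.08 on the log2 scale under PBS and -1.98 under AA, as the labels have it. Of the epithelial markers, KRT8 (754 to 2014 CPM) and KRT18 (693 to 1441 CPM) were high in all 12 libraries, as was CPS1 (706 to 1041 CPM), a gene known to be high in A549. KRT19 (0.0540 to 0.50 CPM), CDH1 (0.735 to 2.43 CPM), ALDH1A1 (0 to 0.0613 CPM) and AKR1B10 (0.425 to 2.43 CPM) were near 0 in every library, and EPCAM (6.38 to 11.3 CPM) and AKR1C1 (6.45 to 27.4 CPM) were low, although A549 is known for high AKR1B10, AKR1C1 and ALDH1A1. Markers of leukocytes (PTPRC, CD3E) were at most 0.0607 CPM, PECAM1 at most 0.219 CPM, DCN at most 0.222 CPM and ALB at most 0.184 CPM, while CDH5 reached 10.6 CPM and COL1A1 lay between 10.6 and 14.6 CPM. What these levels say about the identity of the cells was not tested.

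Promoter stretches of 5 members are shown because they carry the same motifs and belong to genes that later part in their response. The 250 bases before each RefSeq start (GRCh38.p14) were read for 42 of the 48 members, and for all windows of a gene where RefSeq gave more than 1. The letters TGACNNNGC, the core of the antioxidant response element bound by NFE2L1 and NFE2L2 proteins, stood on either strand in 13 of 42 member promoters (31.0%) and in 13.2% of the promoters of 27305 genes. The interferon-type element GAAA NN GAAA stood in 5 of 42 (11.9%, against 3.7% of all), in PSMA4, PSMB4, PSMB10, PSME2 and PSMG4. The letters CCAAT stood in 19 of 42 (45.2%, against 37.0% of all). TGATGNAA (ATF4 type), GAA NN TTC NN GAA (heat shock type) and TGACGTCA (CREB type), the last of which shares its first letters with TGACNNNGC, stood in the windows of 0 of the 42 members, against 3.9%, 0.6% and 2.0% of all promoters. A match is a run of letters, not a shown binding site. The stretches below run 5′ to 3′ on the gene's own strand, with the match in capitals. They come from chr17:39980744-39980803 (plus strand, match at positions -37 to -29 from the start) for PSMD3, chr17:38752611-38752670 (plus strand, -104 to -96) for PSMB3, chr14:24146611-24146670 (minus strand, -28 to -19) for PSME2, chr16:67936851-67936910 (minus strand, -21 to -12) for PSMB10 and chr6:3258887-3258946 (plus strand, -33 to -24) for PSMG4.
PSMD3: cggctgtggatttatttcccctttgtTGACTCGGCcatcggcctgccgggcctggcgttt
PSMB3: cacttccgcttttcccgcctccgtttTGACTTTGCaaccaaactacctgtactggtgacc
PSME2: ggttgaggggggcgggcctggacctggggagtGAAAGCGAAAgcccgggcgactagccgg
PSMB10: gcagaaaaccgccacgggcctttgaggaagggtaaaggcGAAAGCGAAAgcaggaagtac
PSMG4: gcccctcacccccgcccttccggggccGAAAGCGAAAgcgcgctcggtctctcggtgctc

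AA raised most proteasome genes in both genotypes, but unevenly in deficient cells. A gene was called where edgeR's quasi-likelihood test gave a Benjamini-Hochberg adjusted p under 0.05 over all 12718 genes tested, and all adjusted p-values in this text come from that test. Of the 48 genes, 46 passed the filter on low counts. In deficient cells, AA against PBS raised 29 of the 46 and lowered 11, where 37.0% of all genes tested were called higher and 37.4% lower. In intact cells, AA against PBS raised 37 and lowered 5, where 34.5% of all genes were called higher and 35.2% lower. The median log2 change of the 46 members was 0.17 in deficient cells and 0.27 in intact cells, and that of all genes tested was 0.01 in both. Summed over the members, the level lay between 8026 and 8115 CPM in the deficient AA libraries, against 7380 to 7432 CPM in the deficient PBS libraries, and between 8643 and 8946 CPM in the intact AA libraries, against 7301 to 7359 CPM in the intact PBS libraries. No library of an AA group overlapped with its PBS group, and the intact AA libraries lay above all others. The members are short, with a median effective length of 1279 bases, against 2605 bases over all genes tested, and AA effects moved with length over all genes. With that trend subtracted, the members' median log2 change turned to -0.08 in deficient cells and was 0.07 in intact cells. The median difference between the genotypes was then -0.14. The trend was subtracted for medians of all members only, so the changes given below for single genes and role groups keep it. In bulk RNA, a change in the cells present and a change in RNA per cell cannot be told apart.

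The AA effect differed between the genotypes for 31 of the 46 members, tested as deficient minus intact: 9 were called higher and 22 lower, where 21.6% of all genes were called higher and 23.0% lower. The median difference of the members was -0.10, against -0.01 for all genes. It was -0.15 without intact AA replicate 2 or intact PBS replicate 3, and -0.04 with library size as the only scaling. The share of the calls that were higher was 29% of 31; with library size as the only scaling it was 42.1%, from 16 higher and 22 lower calls. The composition factors of the main scaling were 1.03 in the 3 deficient AA libraries and 0.987 to 0.996 in the other 9. Of the 46 members, 25 rose in both genotypes and 3 fell in both. Another 7 fell in deficient cells and rose in intact cells (PSMA3, PSMB2, PSMC6, PSMD1, PSMD2, PSMD3 and PSMD10), and PSMG3 alone rose in deficient cells and fell in intact cells. These joint counts were not taken over all genes tested, so whether they are unusual was not tested. The call of PSMA3 in deficient cells, with -0.13, was lost without any 1 of deficient PBS replicates 1 and 3 and deficient AA replicates 1 and 3 (-0.12 each), with library size only (-0.07) and on FPKM (-0.06). The fall of PSMG3 in intact cells was -0.06 and not called on FPKM.

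**Figure D1:**
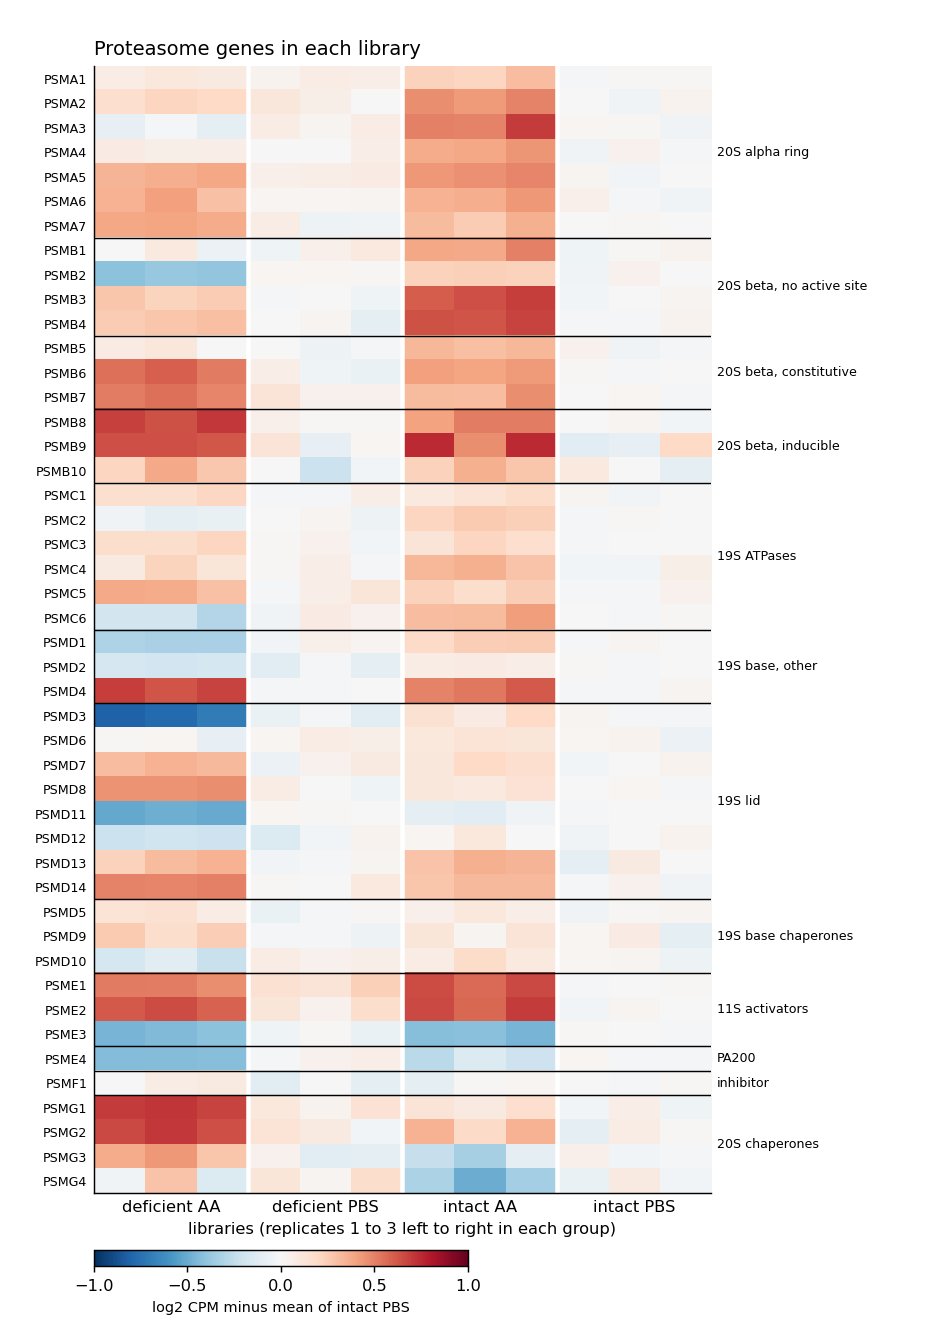
Level of each tested proteasome gene in each of the 12 libraries, as log2 CPM minus the mean of the 3 intact PBS libraries (colour scale, red higher, blue lower). Rows are genes grouped by role, columns are libraries in the order deficient AA, deficient PBS, intact AA, intact PBS. Deficient AA libraries show red and blue rows side by side within the core and the cap, while intact AA libraries are red for 37 members that rose, and both PBS groups are pale.

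Under PBS, no proteasome gene was called different between deficient and intact cells. The count of members called was 0 in each direction, where 0.0550% of all genes were called higher and 0.220% lower in edgeR, and DESeq2 also called 0 members. An unadjusted p under 0.05 in edgeR was reached by 5 of the 46 members and by 1075 of all 12718 genes tested. Of these 5 members, PSME1 had the largest difference, 0.18 ± 0.04 SE (adjusted p = 0.0948), with all deficient PBS libraries above all intact PBS libraries. The median log2 difference, deficient over intact, was 0.02. The members' differences ran between -0.08 for PSMB10 and 0.18 for PSME1.

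**Figure D2:**
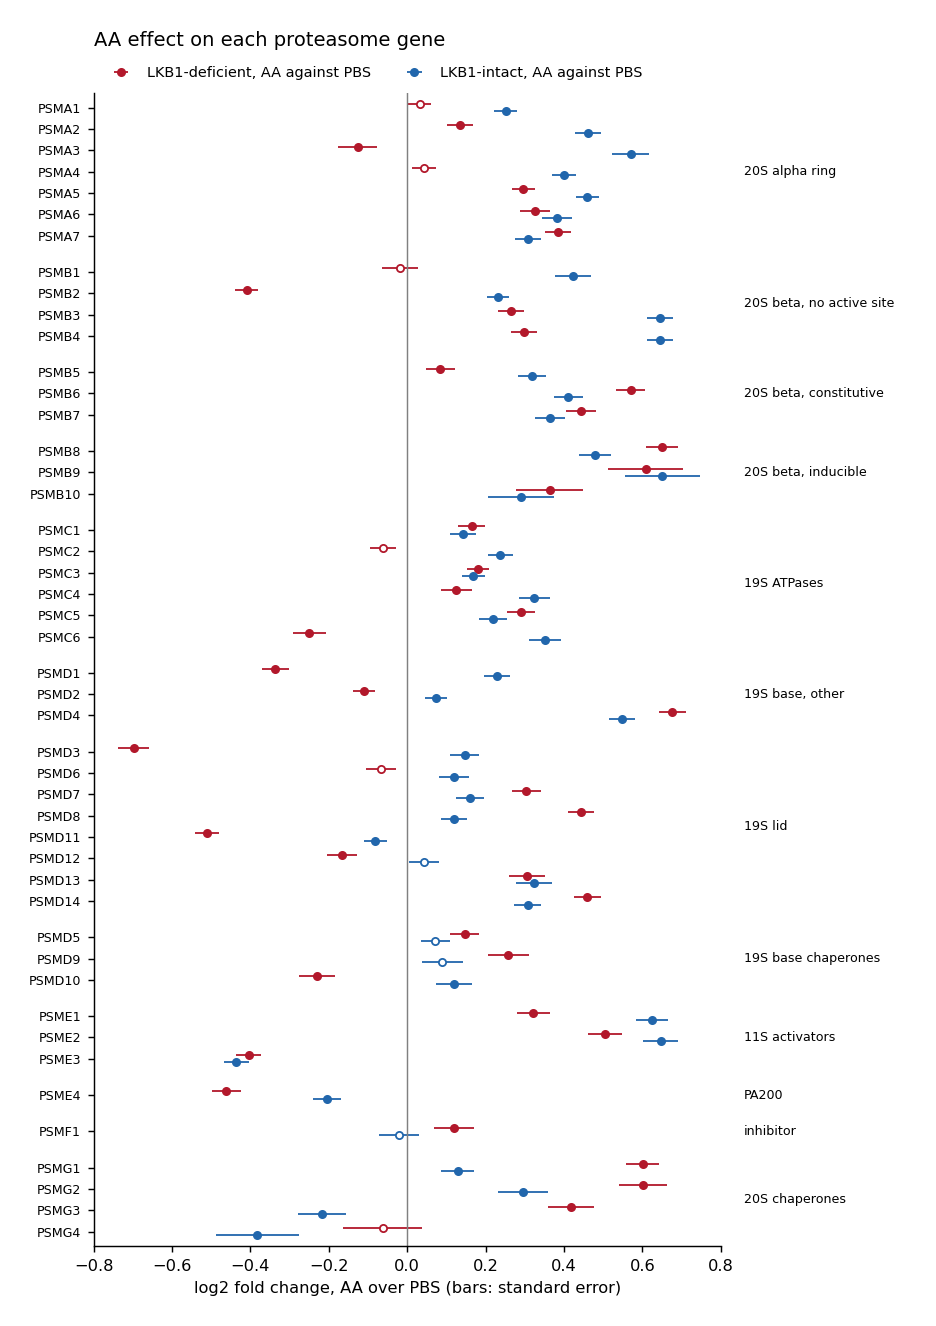
Log2 fold change of AA over PBS for each of the 46 tested proteasome genes in LKB1-deficient (red) and LKB1-intact cells (blue), with the standard error of the fit. Filled points are called at adjusted p under 0.05 and open points are not; for the alpha ring and the beta subunits without an active site the deficient values lie mostly left of the intact ones, and for the assembly chaperones PSMG1 to PSMG4 they lie right of them.

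The alpha ring, which gates entry to the core, rose as a whole in intact cells and in part in deficient cells. All 7 alpha subunits expressed in these cells rose with AA in intact cells, by 0.25 (PSMA1) to 0.57 (PSMA3) on the log2 scale. In deficient cells PSMA2, PSMA5, PSMA6 and PSMA7 rose, by 0.13 to 0.39, and PSMA3 fell. PSMA1 changed by 0.03 ± 0.03 SE (adjusted p = 0.343) and PSMA4 by 0.04 ± 0.03 SE (adjusted p = 0.198), neither called, though both were called higher with library size only (0.09 and 0.10). PSMA1 to PSMA5 had a lower AA effect in deficient cells, 5 of the 7, and 0 a higher one, with a median difference of -0.22. Of all genes tested, 34.5% rose and 35.2% fell in intact cells, and 37.0% rose and 37.4% fell in deficient cells. The difference was called lower for 23.0% of all genes and higher for 21.6%. PSMA3, the alpha7 subunit encoded at chr14:58244831-58272012 (GRCh38), had 79.2, 82.8 and 78.9 CPM in deficient AA libraries, against 88.7, 85.6 and 88.5 CPM in deficient PBS libraries. It had 119, 119 and 136 CPM in intact AA libraries, against 85.4, 84.96 and 81.9 CPM in intact PBS libraries. The deficient AA libraries lay below the deficient PBS libraries but overlapped with the intact PBS libraries, and the intact AA libraries lay above every other library. PSMA3 differed by -0.70 ± 0.07 SE (adjusted p = 3.83e-08) between the genotypes, among the 3 largest negative differences of the 46 genes. PSMA7, the alpha4 subunit, was by FPKM the most abundant obligate subunit with a PSM symbol on average over the 12 libraries. It rose in deficient cells (0.39) and intact cells (0.31). The difference of 0.08 was not called except without deficient PBS replicate 1 (0.12) and with library size only (0.13). On FPKM, the difference for PSMA5 (-0.16) was -0.09 and not called. The testis subunit PSMA8 had 0 counts in all 12 libraries, and the thymus subunit PSMB11 had 1 count in 1 library.

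The beta subunits without an active site, which complete the inner rings, had the largest median difference between the genotypes of the core groups. PSMB1, PSMB2, PSMB3 and PSMB4 all rose in intact cells (median 0.53), and the difference was called lower for all 4 (median -0.41). Of all genes tested, 34.5% rose in intact cells, and the difference was called lower for 23.0%. PSMB2, the beta4 subunit encoded at chr1:35599544-35641844 (GRCh38), had 200.1, 204 and 202 CPM in deficient AA libraries, against 269, 269 and 267 CPM in deficient PBS libraries. It had 311, 313 and 311 CPM in intact AA libraries, against 258, 273 and 265 CPM in intact PBS libraries. The AA libraries lay below the PBS libraries in deficient cells and above them in intact cells. PSMB2 thus changed by -0.41 ± 0.03 SE (adjusted p = 3.17e-11) in deficient cells and by 0.23 ± 0.03 SE (adjusted p = 2.93e-07) in intact cells, a difference of -0.64 ± 0.04 SE (adjusted p = 4.26e-11). PSMB3, the beta3 subunit, had 184, 178 and 181 CPM in deficient AA libraries, against 152, 153 and 148 CPM in deficient PBS libraries, and 232, 238 and 246 CPM in intact AA libraries, against 149.6, 152 and 156 CPM in intact PBS libraries. Its AA libraries lay above the PBS libraries in both genotypes, and the intact AA libraries above the deficient ones. It rose by 0.27 in deficient cells and by 0.65 ± 0.03 SE (adjusted p = 2.26e-13) in intact cells, with a difference of -0.38 (adjusted p = 9.5e-07). PSMB4 had the same order of groups, with rises of 0.30 and 0.64. PSMB1 changed by -0.02 ± 0.05 SE (adjusted p = 0.738) in deficient cells, where it was not called, and rose by 0.42 in intact cells.

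**Figure D3:**
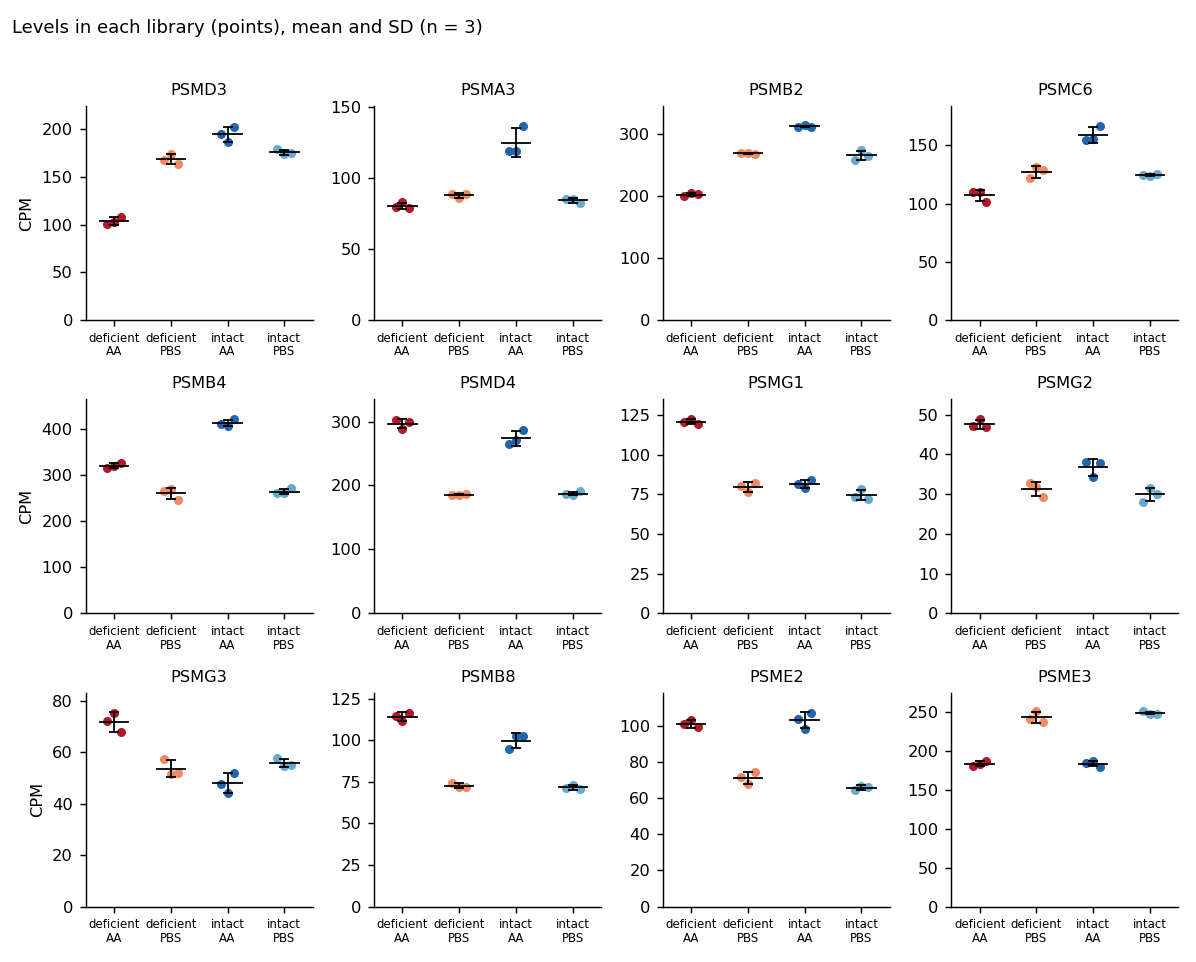
CPM (TMM-scaled) of 12 proteasome genes in each library (points), with the mean and SD of the 3 libraries of a group (bars), in the order deficient AA, deficient PBS, intact AA, intact PBS. PSMD3, PSMA3, PSMB2 and PSMC6 are on average lowest in deficient AA libraries and highest in intact AA libraries, PSMG1 to PSMG3 are highest in deficient AA libraries, and PSME3 is lower with AA in both genotypes.

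The 3 constitutive active-site subunits rose in both genotypes, where 37.0% of all genes tested rose in deficient cells and 34.5% in intact cells. PSMB6, the caspase-like beta1 subunit, had 175, 181 and 171 CPM in deficient AA libraries, against 125, 116 and 114 CPM in deficient PBS libraries. It had 159, 158 and 161 CPM in intact AA libraries, against 120.3, 118 and 120.2 CPM in intact PBS libraries. PSMB7, the trypsin-like beta2 subunit, had 354, 363 and 347 CPM in deficient AA libraries, against 270.5, 256 and 256 CPM in deficient PBS libraries. In intact cells PSMB7 had 309, 307 and 342 CPM, against 247, 251 and 245 CPM. For both genes every AA library lay above every PBS library. PSMB6 rose by 0.57 and 0.41 in deficient and intact cells (difference 0.16 ± 0.05 SE, adjusted p = 0.017), and PSMB7 by 0.44 and 0.36. The PSMB7 difference of 0.08 was not called, but was called at 0.13 without intact AA replicate 3 and at 0.13 with library size only. PSMB5, the chymotrypsin-like beta5 subunit that proteasome inhibitor drugs bind, had 140.2, 143 and 133 CPM in deficient AA libraries, against 133, 128 and 132 CPM in deficient PBS libraries. It had 166, 163 and 166 CPM in intact AA libraries, against 136, 129.6 and 132 CPM in intact PBS libraries. All AA libraries of PSMB5 lay above the PBS libraries of their genotype, by a narrow margin in deficient cells. The rise was 0.08 ± 0.04 SE (adjusted p = 0.0399) in deficient cells and, in intact cells, 0.32 ± 0.04 SE (adjusted p = 7.21e-08). The deficient call was lost without any 1 of deficient AA replicates 1 (0.08) and 2 (0.06), deficient PBS replicates 2 (0.07) and 3 (0.09) and intact PBS replicates 2 and 3 (0.08 each). The difference for PSMB5 was -0.23 ± 0.05 SE (adjusted p = 0.000704).

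The 3 interferon-inducible active-site subunits also rose in both genotypes, where 37.0% of all genes tested rose in deficient cells and 34.5% in intact cells. PSMB8, the beta5i subunit encoded at chr6:32840717-32844703 (GRCh38), had 115, 112 and 117 CPM in deficient AA libraries, against 74.3, 72.01 and 72.1 CPM in deficient PBS libraries. It had 94.9, 102 and 102 CPM in intact AA libraries, against 71.6, 72.9 and 70.4 CPM in intact PBS libraries. PSMB9, the beta1i subunit, had 20.5, 20.4 and 20.1 CPM in deficient AA libraries, against 14.3, 12.4 and 13.3 CPM in deficient PBS libraries. In intact cells PSMB9 had 22.00, 18.1 and 21.9 CPM, against 12.1, 12.4 and 14.99 CPM. The AA libraries of both genes lay above the PBS libraries in each genotype. PSMB8 rose by 0.65 ± 0.04 SE (adjusted p = 3.33e-12) in deficient cells and 0.48 ± 0.04 SE (adjusted p = 1.05e-09) in intact cells, and PSMB9 by 0.61 ± 0.10 SE (adjusted p = 6.41e-06) and 0.65 ± 0.10 SE (adjusted p = 3.26e-06). PSMB10, the beta2i subunit, had 17.3, 19.4 and 17.98 CPM in deficient AA libraries, against 14.9, 12.9 and 14.7 CPM in deficient PBS libraries. It had 17.5, 19.1 and 18.1 CPM in intact AA libraries, against 15.98, 14.9 and 14.04 CPM in intact PBS libraries. For PSMB10, too, the AA libraries lay above the PBS libraries in each genotype. Its rise was 0.36 (adjusted p = 0.000582) in deficient cells and 0.29 (adjusted p = 0.00408) in intact cells. Among these 3, the difference was called for PSMB8 only, at 0.17 ± 0.06 SE (adjusted p = 0.0191), and that call was lost without intact AA replicate 1 (0.14) or intact PBS replicate 2 (0.16). PSMB8 and PSMB9 lie side by side on chromosome 6 and share 139 exonic bases on opposite strands in GENCODE 29. The noncoding gene PSMB8-AS1 overlaps 20.6% of the exonic bases of PSMB8 on the other strand. It also overlaps 5.7% of those of PSMB9 on the same strand. PSMB10 shares 34.8% of its exonic bases with the second identifier of that symbol. Counting by strand is not given in the sources used here, so the counts of these 3 genes are uncertain.

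Each inducible subunit takes the place of 1 constitutive subunit, so the ratio of their FPKM was compared in the libraries. PSMB8 over PSMB5 was 0.714, 0.682 and 0.770 in deficient AA libraries, against 0.494, 0.494 and 0.479 in deficient PBS libraries. In intact cells it was 0.504, 0.548 and 0.546 with AA, against 0.463, 0.497 and 0.467 with PBS. The deficient AA libraries lay above all others. On the log2 scale the ratio was higher by 0.56 with AA in deficient cells and by 0.16 in intact cells, and by 0.44 in deficient over intact cells under AA. Each of these has a two-sided exact permutation p = 0.1 (n = 3 against 3), the smallest the design allows, and 0.3 after adjustment over 12 ratio comparisons. The log2 ratio of PSMB9 over PSMB6 was higher by 0.39 with AA in intact cells (exact p = 0.1, adjusted 0.3), but by 0.24 (exact p = 0.2) when taken from estimated counts. In deficient cells it was higher by 0.06 (exact p = 0.6), a direction that turned without deficient PBS replicate 2 (-0.04) or deficient AA replicate 3 (-0.00085). PSMB10 over PSMB7 was lower by 0.08 and 0.07 (log2 changes -0.08 and -0.07; exact p = 0.3 and 0.5) in deficient and intact cells. Without 1 library the PSMB10 over PSMB7 change lay between -0.13 (without deficient PBS replicate 2) and -0.037 (without deficient PBS replicate 3) in deficient cells, and between -0.12 (without intact AA replicate 2) and -0.0075 (without intact AA replicate 3) in intact cells. A p of this size does not show that the ratios were equal.

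**Figure D4:**
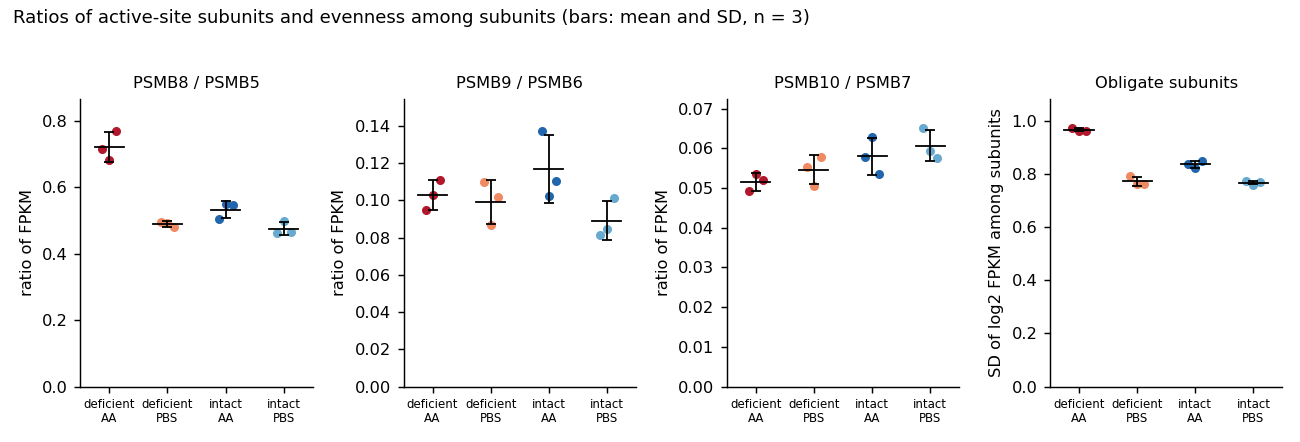
Ratio of the FPKM of each inducible active-site subunit to that of the constitutive subunit it replaces, and the SD of log2 FPKM among 31 obligate subunits. These 31 are the subunits of the core and cap with a PSM symbol. Points are libraries and bars the mean and SD over 3 libraries, in the order deficient AA, deficient PBS, intact AA, intact PBS. PSMB8 over PSMB5 is highest in the deficient AA libraries (0.682 to 0.770), and the subunits were least even there (SD 0.961 to 0.971). The SD was not taken over other genes for comparison.

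In the base of the cap, the 6 ATPases that unfold substrates rose in intact cells and split in deficient cells. In intact cells all 6 rose, by 0.14 (PSMC1) to 0.35 (PSMC6). In deficient cells PSMC1, PSMC3, PSMC4 and PSMC5 rose, by 0.13 to 0.29, and PSMC6, the Rpt4 ATPase, fell by 0.25 on the log2 scale (adjusted p = 1.62e-05). PSMC2 changed by -0.06 ± 0.03 SE (adjusted p = 0.0901). A lower AA effect in deficient cells was called for PSMC2, PSMC4 and PSMC6, at -0.30, -0.20 and -0.60, and higher for 0 of the 6. Of all genes tested, 34.5% rose and 35.2% fell in intact cells, and 37.0% rose and 37.4% fell in deficient cells. The difference was called lower for 23.0% of all genes and higher for 21.6%. The rise of PSMC4 in deficient cells (0.13) was not called without deficient AA replicate 2 (0.09), and PSMC2 was called lower in deficient cells without deficient PBS replicate 3 (-0.09). On FPKM, the differences of PSMC2 (-0.15) and PSMC4 (-0.15) were not called. Most of the annotated exonic bases of PSMC1 (75.8%) overlap NRDE2 on the other strand, and counting by strand is not given in the sources used here.

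Of the other base subunits, the scaffold proteins PSMD1 (Rpn2) and PSMD2 (Rpn1) and the ubiquitin receptor PSMD4 (Rpn10) went separate ways in deficient cells. PSMD4 had 303, 289 and 299 CPM in deficient AA libraries, against 186, 185 and 187 CPM in deficient PBS libraries. It had 265, 270.5 and 287 CPM in intact AA libraries, against 186, 185 and 191 CPM in intact PBS libraries. The AA libraries lay far above the PBS libraries in both genotypes, with rises of 0.68 ± 0.03 SE (adjusted p = 6.54e-14) and 0.55 ± 0.03 SE (adjusted p = 4.45e-12), the largest rise in deficient cells among the 46 genes. PSMD1 changed by -0.34 ± 0.03 SE (adjusted p = 1.4e-08) in deficient cells and by 0.23 ± 0.03 SE (adjusted p = 3.6e-06) in intact cells, a difference of -0.57 (adjusted p = 4.5e-09). PSMD2 changed by -0.11 and 0.07, both called. The fall of PSMD2 was not called with library size only (-0.05) or on FPKM (-0.06). Its rise in intact cells (0.07) was also not called on log2(FPKM + 1) with the filter on low values, and it was not called without any 1 of intact AA replicates 1 and 2 and intact PBS replicates 2 and 3 (0.07 each). The difference for PSMD4 (0.13) was lost without any 1 of deficient AA replicates 1 (0.11) and 3 (0.12), deficient PBS replicate 1 (0.13), intact AA replicates 1 (0.10) and 2 (0.12) and intact PBS replicate 3 (0.11). By FPKM, PSMD1 was the lowest of the 31 obligate subunits with a PSM symbol, at 40.9 FPKM on average over the 12 libraries. PSMA7 was the highest at 406 FPKM.

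The lid, which cleaves ubiquitin from substrates, held both the largest fall and several clear rises in deficient cells. Of its 8 subunits with a PSM symbol, 4 rose and 3 fell in deficient cells, where 37.0% of all genes tested rose and 37.4% fell. In intact cells 6 rose and 1 fell, where 34.5% of all genes tested rose and 35.2% fell. PSMD3, the Rpn3 subunit, lies at chr17:39980797-39997960 (GRCh38). It had 100.4, 103 and 108 CPM in deficient AA libraries, against 168, 174 and 164 CPM in deficient PBS libraries. It had 195, 186 and 202 CPM in intact AA libraries, against 179, 174 and 175 CPM in intact PBS libraries. The deficient AA libraries lay below all other libraries, and the intact AA libraries above all others. PSMD3 changed by -0.70 ± 0.04 SE (adjusted p = 6.16e-13) in deficient cells and by 0.15 ± 0.04 SE (adjusted p = 0.00154) in intact cells. The difference of -0.84 ± 0.05 SE (adjusted p = 5.15e-11) was the largest of the 46 genes. PSMD11, the Rpn6 subunit, had 178, 180.4 and 179 CPM in deficient AA libraries, against 257, 256 and 253 CPM in deficient PBS libraries. It had 237, 234 and 247 CPM in intact AA libraries, against 251, 254 and 255 CPM in intact PBS libraries. The AA libraries of PSMD11 lay below the PBS libraries in both genotypes, far below in deficient cells. It fell by 0.51 on the log2 scale in deficient cells (adjusted p = 1.11e-12) and by 0.08 in intact cells (adjusted p = 0.0181). The fall in intact cells was not called without intact AA replicate 1 (-0.07) or 2 (-0.07), nor with upper quartile factors (-0.02) or on FPKM (-0.04).

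PSMD8, the Rpn12 subunit of the lid, moved the other way. It had 239.7, 240.1 and 242 CPM in deficient AA libraries, against 185, 176 and 170.4 CPM in deficient PBS libraries. It had 189.98, 188 and 195 CPM in intact AA libraries, against 175, 178 and 174 CPM in intact PBS libraries. The AA libraries lay above the PBS libraries in both genotypes and highest in deficient cells. The rise was 0.44 in deficient cells and 0.12 in intact cells, and the difference 0.32 ± 0.05 SE (adjusted p = 8.02e-06). The deubiquitinase PSMD14 rose by 0.46 and 0.31, PSMD7 by 0.30 and 0.16, and PSMD13 by 0.31 and 0.32. PSMD12 fell in deficient cells (-0.17) and changed by 0.04 in intact cells, uncalled. PSMD6 changed by -0.07 in deficient cells, uncalled, and rose by 0.12 in intact cells, a call lost without intact PBS replicate 3 (0.09). The difference was called higher for PSMD14 (0.15) and PSMD7 (0.14). The PSMD14 call was lost without intact PBS replicate 2 (0.13). The PSMD7 call was lost without deficient AA replicate 2 (0.13), deficient PBS replicate 1 (0.10), intact AA replicate 1 (0.12) or intact PBS replicate 3 (0.13). On FPKM, the fall of PSMD12 (-0.07) and the differences of PSMD12 and PSMD6 (-0.13 each) were not called, nor was the rise of PSMD7 in intact cells (0.12).

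The 3 chaperones that help assemble the base did not move together. PSMD10 (gankyrin) fell in deficient cells (-0.23 ± 0.05 SE, adjusted p = 0.000144) and rose in intact cells (0.12 ± 0.05 SE, adjusted p = 0.0258). The rise was not called without intact AA replicate 2 or intact PBS replicate 3 (0.09 each), while the difference of -0.35 ± 0.07 SE (adjusted p = 0.000162) was called. PSMD5 rose by 0.15 and PSMD9 by 0.26 in deficient cells. In intact cells PSMD5 changed by 0.07 ± 0.04 SE (adjusted p = 0.0938) and PSMD9 by 0.09 ± 0.05 SE (adjusted p = 0.132), neither called. On FPKM the change of PSMD5 in deficient cells was 0.03 and not called. The PSMD9 difference of 0.17 was called without intact PBS replicate 3 (0.21).

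The activators formed a contrast that was shared by both genotypes: PSME1 and PSME2 rose, and PSME3 and PSME4 fell. Of all genes tested, 37.0% rose and 37.4% fell in deficient cells, and 34.5% rose and 35.2% fell in intact cells. An even split of 4 genes is thus near the split of all genes. Effective lengths of the members ran from 752 to 7054 bases, and AA effects moved with length over all genes. Whether this contrast goes with length was not tested. PSME1 and PSME2 encode the subunits of PA28, an interferon-induced ring that favours the release of peptides for antigen presentation. PSME1 had 98.1, 97.5 and 94.5 CPM in deficient AA libraries, against 76.2, 74.9 and 80.9 CPM in deficient PBS libraries. It had 107, 101 and 108 CPM in intact AA libraries, against 67.9, 68.3 and 69.1 CPM in intact PBS libraries. PSME2 had 101, 103 and 99.00 CPM in deficient AA libraries, against 71.6, 67.6 and 74.3 CPM in deficient PBS libraries. In intact cells PSME2 had 104, 97.95 and 107 CPM, against 64.3, 66.9 and 65.9 CPM. All AA libraries lay above all PBS libraries for both genes. PSME1 rose by 0.32 ± 0.04 SE (adjusted p = 3.96e-07) and PSME2 by 0.50 ± 0.04 SE (adjusted p = 9.16e-10) in deficient cells, and by 0.63 ± 0.04 SE (adjusted p = 1.91e-11) and 0.65 ± 0.04 SE (adjusted p = 2.95e-11) in intact cells. PSME1 differed in its AA effect, by -0.30 ± 0.06 SE (adjusted p = 0.00023). For PSME2 it was -0.14 ± 0.06 SE (adjusted p = 0.0701), and it was called without deficient PBS replicate 2 (-0.17) or intact AA replicate 2 (-0.18).

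PSME3, the nuclear PA28 gamma subunit, had 180.5, 184 and 187 CPM in deficient AA libraries, against 242, 251 and 237 CPM in deficient PBS libraries. It had 185, 187 and 180.04 CPM in intact AA libraries, against 251, 248 and 248 CPM in intact PBS libraries. Its AA libraries lay below its PBS libraries in each genotype, with changes of -0.40 ± 0.03 SE (adjusted p = 1.43e-10) and -0.44 ± 0.03 SE (adjusted p = 7.29e-11). The difference of 0.03 was not called by edgeR but was 0.21 and called on FPKM. PSME4, which encodes the large activator PA200, had 149.99, 150.02 and 151 CPM in deficient AA libraries, against 199.9, 209 and 212 CPM in deficient PBS libraries. It had 168, 184 and 175 CPM in intact AA libraries, against 206, 201 and 201 CPM in intact PBS libraries. The AA libraries of PSME4 lay below the PBS libraries in both genotypes. Its fall was larger in deficient cells (-0.46, adjusted p = 1.49e-10) than in intact cells (-0.20, adjusted p = 3.12e-05), with a difference of -0.26 ± 0.05 SE (adjusted p = 0.000272). The inhibitor PSMF1 (PI31) had 50.4, 52.98 and 53.7 CPM in deficient AA libraries, against 46.9, 50.3 and 47.3 CPM in deficient PBS libraries. In intact cells PSMF1 had 47.3, 50.7 and 50.98 CPM, against 50.4, 49.9 and 50.9 CPM. For PSMF1 the deficient AA libraries lay just above the deficient PBS libraries and the intact libraries overlapped, with changes of 0.12 ± 0.05 SE (adjusted p = 0.0374) and -0.02 ± 0.05 SE (adjusted p = 0.727). The call of PSMF1 in deficient cells was lost without any 1 of deficient AA replicates 2 (0.11) and 3 (0.10) and deficient PBS replicates 1 and 3 (0.10 each), and with DESeq2 (0.12) and on FPKM (0.11).

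Among the 4 chaperones that assemble the alpha ring, the difference of the AA effect was called higher in deficient cells for 3 and lower for 0. Of all genes tested, 21.6% were called higher and 23.0% lower. PSMG1 and PSMG2 encode the partners of a dimer on which the alpha ring is built, and PSMG3 and PSMG4 those of another. PSMG1, at chr21:39174769-39183851 (GRCh38), had 121, 122 and 119 CPM in deficient AA libraries, against 80.01, 76.4 and 82.2 CPM in deficient PBS libraries. It had 81.3, 79.2 and 83.7 CPM in intact AA libraries, against 73.2, 78.04 and 72.2 CPM in intact PBS libraries. The deficient AA libraries lay above all others. PSMG1 rose by 0.60 ± 0.04 SE (adjusted p = 1.81e-11) in deficient cells and by 0.13 ± 0.04 SE (adjusted p = 0.011) in intact cells. The change in intact cells was not called without intact AA replicate 3 (0.11) or intact PBS replicate 3 (0.10). PSMG2 had 47.2, 48.9 and 46.9 CPM in deficient AA libraries, against 32.8, 31.9 and 29.4 CPM in deficient PBS libraries. It had 38.1, 34.2 and 37.95 CPM in intact AA libraries, against 28.1, 31.5 and 30.2 CPM in intact PBS libraries. The AA libraries of PSMG2 lay above the PBS libraries in both genotypes, and the deficient AA libraries above all others. It rose by 0.60 in deficient cells and by 0.29 in intact cells. PSMG3 had 72.1, 75.3 and 67.8 CPM in deficient AA libraries, against 57.4, 51.5 and 52.1 CPM in deficient PBS libraries, and 47.5, 44.2 and 52.02 CPM in intact AA libraries, against 57.7, 54.6 and 55.1 CPM in intact PBS libraries. For PSMG3 the AA libraries lay above the PBS libraries in deficient cells and below them in intact cells. It changed by 0.42 ± 0.06 SE (adjusted p = 1.35e-06) in deficient cells and by -0.22 ± 0.06 SE (adjusted p = 0.00318) in intact cells. PSMG4, the least abundant, had 14.2, 17.8 and 13.3 CPM in deficient AA libraries, against 15.9, 14.9 and 16.5 CPM in deficient PBS libraries, and 11.7, 10.3 and 11.5 CPM in intact AA libraries, against 13.9, 15.5 and 14.3 CPM in intact PBS libraries. The deficient libraries of PSMG4 overlapped, with a change of -0.06 ± 0.10 SE (adjusted p = 0.584), whereas the intact AA libraries lay below the intact PBS libraries, at -0.38 ± 0.11 SE (adjusted p = 0.00292).

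The difference of the AA effect was called higher for PSMG1 (0.47, adjusted p = 1.31e-06), PSMG2 (0.31, adjusted p = 0.00723) and PSMG3 (0.63, adjusted p = 2.54e-06). For PSMG4 it was 0.32 ± 0.15 SE (adjusted p = 0.0817), called without deficient AA replicate 3 (0.40) and with library size only (0.37). Summed over the 4 genes, the level was 247 to 264 CPM in deficient AA libraries, against 175 to 186 CPM in deficient PBS libraries, and 168 to 185 CPM in intact AA libraries, against 172 to 180 CPM in intact PBS libraries, so only the deficient groups separated. On FPKM the changes in intact cells of PSMG1 (0.11), PSMG3 (-0.06) and PSMG4 (-0.07) were not called, and PSMG4 in deficient cells was called higher at 0.25.

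Under AA, deficient and intact cells differed in 35 members: 13 were called higher and 22 lower in deficient cells, where 28.7% of all genes were called higher and 30.3% lower. The median difference was -0.03, against -0.02 for all genes; it was -0.08 without intact AA replicate 2, -0.05 without intact AA replicate 1, -0.06 without deficient AA replicate 2 and -0.02 without intact AA replicate 3. It turned to 0.03 with library size only and to 0.02 on FPKM. With library size only, 18 were higher and 19 lower, so that the share of calls that were higher was 48.6%, against 37.1% of the 35. All 4 assembly chaperones were higher in deficient AA cells (PSMG1 0.57, PSMG2 0.37, PSMG3 0.58, PSMG4 0.43), with all deficient AA libraries above all intact AA libraries. The largest negative differences were those of PSMD3 (-0.91 ± 0.04 SE, adjusted p = 1.66e-14), PSMA3 (-0.64 ± 0.05 SE, adjusted p = 1.75e-10) and PSMB2 (-0.63 ± 0.03 SE, adjusted p = 6.12e-14). This comparison shares its AA libraries with those of the AA effect and is no separate evidence. PSME3 differed by -0.0009 ± 0.03 SE (adjusted p = 0.981) and was called higher at 0.22 on FPKM. The lower calls of PSME1, PSMA5 and PSMD6 were lost on FPKM (-0.07, -0.03 and -0.08) and with library size only (-0.07, -0.04 and -0.08). The call of PSMD9 (0.14) was lost without deficient AA replicate 1 (0.12) or 3 (0.13) or intact AA replicate 2 (0.11). PSMA7 (0.08) was called without intact AA replicate 3 (0.10) or any 1 of deficient PBS replicates 1 to 3 (0.08 each).

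**Figure D5:**
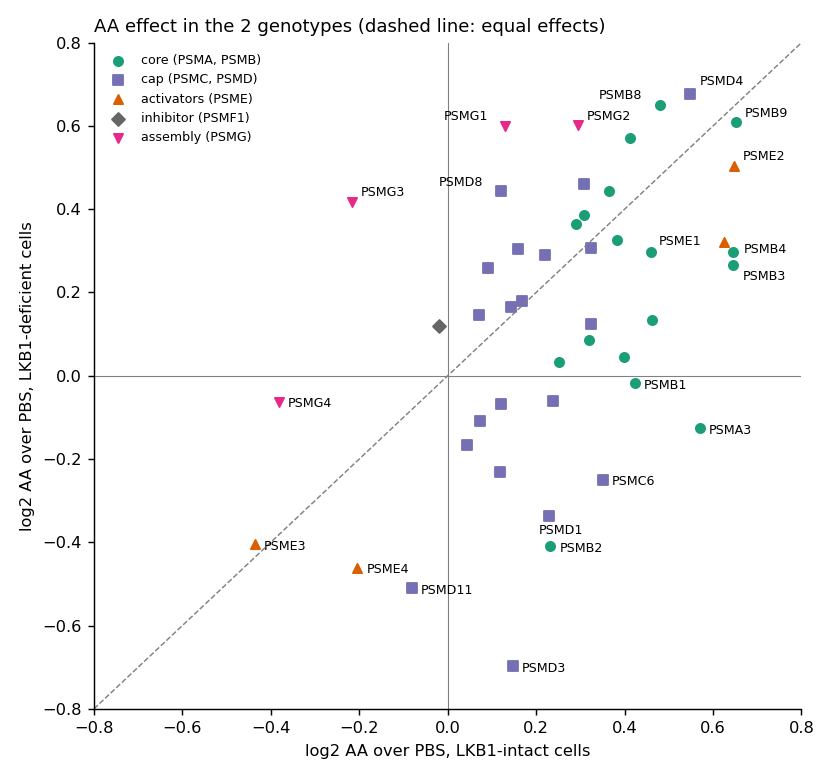
Log2 fold change of AA over PBS in LKB1-deficient cells (y axis) and LKB1-intact cells (x axis) for the 46 tested proteasome genes, marked by role, with a dashed line of equal effects. The assembly chaperones lie above the line, while PSMD3, PSMA3, PSMB2, PSMC6 and PSMD1 lie far below it in the lower right, where a gene fell in deficient and rose in intact cells.

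The AA effects of deficient and intact cells share no library. Across the 46 members Pearson's r was 0.476 and Spearman's rho 0.464, against 0.745 and 0.734 across all 12718 genes, given as a description since genes are not independent and the members span a narrower range of change. Evenness among the subunits was also described by FPKM. The 31 obligate subunits are those of the constitutive core and the cap with a PSM symbol, so the cap subunits ADRM1 and SEM1 are left out. Among these 31 the SD of log2 FPKM was 0.961 to 0.971 in deficient AA libraries, against 0.761 to 0.790 in deficient PBS libraries. It was 0.821 to 0.848 in intact AA libraries, against 0.759 to 0.771 in intact PBS libraries. No like measure was taken over other genes, and whether the spread goes with gene length was not tested. Of these 31 subunits, 18 rose and 8 fell in deficient cells, where 37.0% of all genes tested rose and 37.4% fell. In intact cells 29 rose and 1 fell, where 34.5% of all genes tested rose and 35.2% fell. The 1 that fell was PSMD11, a call lost on FPKM and without intact AA replicate 1 or 2 (-0.07 each).

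By promoter letters, members with and without TGACNNNGC were set side by side. In deficient cells 9 of 13 tested members with it rose and 3 fell, and of 27 tested members without it 15 rose and 8 fell. In intact cells the counts were 9 and 1 of 13 with it, and 23 and 3 of 27 without it. Over all genes tested, 37.0% rose and 37.4% fell in deficient cells, and 34.5% rose and 35.2% fell in intact cells. PSMD3 and PSMB3, whose stretches are shown above, both carry these letters, and in deficient cells PSMD3 fell (-0.70) while PSMB3 rose (0.27). PSME2, PSMB10 and PSMG4 share the very letters GAAAGCGAAA just before their starts. In intact cells PSME2 and PSMB10 rose (0.65 and 0.29) while PSMG4 fell (-0.38), a fall not called on FPKM. The stretches were chosen because their genes part, so this parting follows from the choice. Of all 5 tested members with GAAA NN GAAA, 4 rose and 1 fell in intact cells, and 3 rose and 0 fell in deficient cells. Of 35 tested members without it, 28 rose and 3 fell in intact cells, and 21 rose and 11 fell in deficient cells.

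Genes around the proteasome are read against the shares of all genes tested, 37.0% higher and 37.4% lower in deficient cells and 34.5% higher and 35.2% lower in intact cells. Of 10 subunits and assembly factors without a PSM symbol, 4 rose and 4 fell in deficient cells (median log2 change 0.03) and 7 rose and 3 fell in intact cells (median 0.18), where the median of all genes was 0.01 in both. The ubiquitin receptor ADRM1 rose by 0.77 ± 0.03 SE (adjusted p = 1.08e-14) in deficient cells and by 0.19 ± 0.03 SE (adjusted p = 5.88e-05) in intact cells, a difference of 0.58. The small lid subunit SEM1 changed by -0.03 ± 0.10 SE (adjusted p = 0.817) and 0.49 ± 0.10 SE (adjusted p = 0.000171), and the core maturation factor POMP by 0.09 ± 0.05 SE (adjusted p = 0.132) and 0.31 ± 0.05 SE (adjusted p = 2.7e-05). Their differences were -0.52 and -0.22, both called, but not on FPKM (-0.47 for SEM1 and -0.16 for POMP). The POMP difference was also lost without any 1 of deficient AA replicate 3 (-0.17), deficient PBS replicates 1 (-0.20) and 3 (-0.18), intact AA replicate 3 (-0.19) and intact PBS replicate 2 (-0.21), and its change in deficient cells was called without deficient AA replicate 3 (0.14).

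Of 11 known regulators of proteasome genes, 3 rose and 7 fell in deficient cells (median -0.40) and 3 rose and 8 fell in intact cells (median -0.46). NFE2L1 changed by 0.02 ± 0.03 SE (adjusted p = 0.654) in deficient cells and fell in intact cells (-0.46 ± 0.03 SE, adjusted p = 1.58e-10). NFE2L2, the regulator of the oxidative stress response, rose in both, by 0.66 and 0.37. NFYA, a subunit of the factor that binds CCAAT boxes, fell by 1.74 on the log2 scale in deficient cells and by 1.05 in intact cells. The difference was called higher for NFE2L1 (0.48) and NFE2L2 (0.29) and lower for NFYA (-0.69). RNA levels do not give the activity of these factors.

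Of 13 substrate shuttles and p97 factors, 6 rose and 7 fell in deficient cells (median -0.12) and 4 rose and 6 fell in intact cells (median -0.08). VCP, the p97 ATPase that extracts ubiquitin-carrying proteins for the proteasome, had 176, 175 and 179.7 CPM in deficient AA libraries, against 428, 451 and 424 CPM in deficient PBS libraries. It had 409.97, 422 and 414 CPM in intact AA libraries, against 432, 434 and 446 CPM in intact PBS libraries. The deficient AA libraries lay far below all others. VCP changed by -1.30 ± 0.03 SE (adjusted p = 2.4e-19) in deficient cells and by -0.08 ± 0.03 SE (adjusted p = 0.0256) in intact cells. The change in intact cells was not called without intact AA replicates 1 or 3 (-0.07 each) or intact PBS replicate 3 (-0.06). Its partner NPLOC4 fell in both genotypes (-0.95 and -0.39). The polyubiquitin gene UBB fell in deficient cells (-0.36 ± 0.03 SE, adjusted p = 8.77e-11) and rose in intact cells (0.49 ± 0.03 SE, adjusted p = 7.71e-13).

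The inducible subunits rose. Of 9 other genes of interferon-driven antigen processing, 0 rose and 6 fell in deficient cells (median -0.41), where 37.4% of all genes tested fell, and 1 rose and 7 fell in intact cells (median -0.50), where 35.2% fell. TAP1, a peptide transporter subunit whose RefSeq start lies 488 bases from that of PSMB9 on the other strand of chromosome 6, changed by -0.06 ± 0.05 SE (adjusted p = 0.283) in deficient cells and by -0.50 ± 0.05 SE (adjusted p = 4.48e-08) in intact cells, where PSMB9 rose. TAPBP fell in both (-0.68 and -0.37). Of 9 subunits of the COP9 signalosome, a relative of the lid, 7 rose and 1 fell in each genotype (median 0.24 in deficient cells and 0.30 in intact cells). COPS3 rose by 0.51 and 0.22.

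Each of the 4 second identifiers shares exonic bases with a PSM gene and with a neighbouring gene on the same strand in GENCODE 29 and was kept apart. ENSG00000256646, which carries the symbol PSMA2, rose in deficient cells (0.80 ± 0.13 SE, adjusted p = 1.22e-05) and in intact cells (0.34 ± 0.13 SE, adjusted p = 0.0285), though its intact libraries overlapped. ENSG00000256206 (symbol PSMA1) and ENSG00000261884 (symbol PSMB10) averaged 0.748 and 0.932 FPKM over the 12 libraries and were not called for either AA effect, and ENSG00000256950 (symbol PSMD9) did not pass the filter. Estimated counts with fractions in 11 or 12 libraries, a sign of reads shared between rows, were found for PSMA1, PSMA2, PSMA6, PSMB10 and PSMC1, so the values of these 5 are less certain.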

How the data were processed

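Poly(A) RNA from 12 A549 libraries, 3 in each of 4 groups, was sequenced by the authors. Per the submitters' processing notes the tools named are HISAT2 2.1.0 and Bowtie2 2.2.8, with RSEM and StringTie 1.3.1 and fastp 0.18.0 (which tool served which step, the build and the strand setting: not given in the sources used here). Per the file headers, the authors deposited an estimated count table and an FPKM table of 20323 genes each. Of the estimated counts, 10.9% to 11.5% per library had a fraction, so counts were rounded. They summed to 16055534 to 20306129 per library, and replicates differed by more than sampling noise.

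The rounded counts were filtered with filterByExpr (minimum count 10), scaled by TMM and fitted in edgeR 4.0.16 (R 4.3.3) with a quasi-likelihood model of the 4 groups over all 12 libraries. Benjamini-Hochberg adjustment ran over 12718 genes with a threshold of 0.05. Standard errors are the log2 fold change's size over the root of its F statistic. TMM-scaled CPM is used within a gene; levels between genes and ratios use the deposited FPKM. Alternatives used other scalings and filters, DESeq2 1.42.0, limma 3.58.1 on counts and on log2(FPKM + 1) or log2(FPKM + 0.1), and left out each library. The fit was tested on simulated data. Positions and overlaps are from GENCODE 29 and promoters from RefSeq GRCh38.p14, by symbol. Members shown library by library are the active-site subunits, PSME, PSMF1 and PSMG genes and the 3 largest called changes in each direction of each comparison. The members and lists were chosen with earlier results of these data known. Counts over the list of ubiquitin genes are not reported here.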

Additional observations from a re-analysis of the deposited data

Results flagged for a closer look

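For 31 proteasome genes the effect of AA over PBS differed between LKB1-deficient and LKB1-intact cells by the interaction term of edgeR's model, and each value below is the log2 effect in deficient cells minus that in intact cells. Among the core genes it was higher for PSMB8 (0.17) and PSMB6 (0.16) and lower for PSMA3 (-0.70), PSMB2 (-0.64), PSMB1 (-0.44), PSMB3 (-0.38), PSMA4 (-0.36), PSMB4 (-0.35), PSMA2 (-0.33), PSMB5 (-0.23), PSMA1 (-0.22) and PSMA5 (-0.16). Among the cap genes it was higher for PSMD8 (0.32), PSMD14 (0.15), PSMD7 (0.14) and PSMD4 (0.13) and lower for PSMD3 (-0.84), PSMC6 (-0.60), PSMD1 (-0.57), PSMD11 (-0.43), PSMD10 (-0.35), PSMC2 (-0.30), PSMD12 (-0.21), PSMC4 (-0.20), PSMD6 (-0.19) and PSMD2 (-0.18). Among the activators it was lower for PSME1 (-0.30) and PSME4 (-0.26). Among the assembly chaperones it was higher for PSMG3 (0.63), PSMG1 (0.47) and PSMG2 (0.31). Among the named genes around the proteasome it was higher for ADRM1 (0.58), NFE2L1 (0.48), TAP1 (0.44), COPS3 (0.29) and NFE2L2 (0.29) and lower for VCP (-1.22), UBB (-0.85), NFYA (-0.69), NPLOC4 (-0.56), SEM1 (-0.52), TAPBP (-0.31) and POMP (-0.22). No group has 4 or more libraries, so no library was tested for standing apart from its group.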

How the results depend on the processing

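Counts of proteasome genes called kept within 1.5 times of the main count under every alternative except 3. On FPKM, 2 rather than 5 fell with AA in intact cells; with library size only, 16 rather than 9 differences were higher; and at an adjusted p under 0.01, 4 were. The median log2 change with AA in deficient cells (0.17) was 0.21 with upper quartile factors, 0.23 with library size only and 0.27 on FPKM, and it turned to -0.077 with the length trend removed. In intact cells (0.27) it was 0.33 with upper quartile factors and 0.066 without the length trend. The median difference (-0.10) was -0.12, -0.045 and -0.14 with upper quartile factors, library size only and the length trend removed. Under AA, the median of deficient over intact cells (-0.03) was -0.054 with upper quartile factors and -0.11 without the length trend, and it turned to 0.027 with library size only and 0.019 on FPKM. The direction also turned on FPKM for PSMG4 with AA in deficient cells (0.25, and 0.27 with the smaller pseudocount), PSME3 between genotypes under AA (0.22) and USP14 with AA in deficient cells (0.011). The cause was not tested.

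Without 1 library, 26 to 29 members rose and 10 to 11 fell in deficient cells (median 0.17 to 0.18), and 33 to 37 rose and 4 to 5 fell in intact cells (0.25 to 0.27). The difference was called higher for 6 to 10 and lower for 22 to 23 (-0.15 to -0.073), and under AA 12 to 14 were higher and 22 lower (-0.080 to -0.019). The log2 ratio of PSMB8 over PSMB5 with AA in deficient cells was 0.51 to 0.60, and that of PSMB9 over PSMB6 was -0.040 to 0.13. Replicate numbers recur across groups, but over all genes tested same-numbered libraries did not deviate together (correlations -0.094 to 0.054). Such a correlation would miss a shared batch that acts weakly or on few genes, so whether same-numbered libraries belong together is not settled. With the replicate block, 29 members rose and 11 fell in deficient cells, 37 and 5 in intact cells, and the difference was called for 9 and 22. Over all alternatives, 113 of 5474 values of single members lost a call (21 members), 54 gained one (15 members) and 5 turned (2 members). With 3 libraries a group, exact tests of single values cannot go below 0.1.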
